A study of Bos taurus with 21 samples.

Results

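Foetal muscle at 180 days post-conception (dpc) was compared with foetal muscle at 110 dpc, the first step of a time course in cattle. The 10 arrays labelled with either stage, of 21 in the series, entered the comparison, 5 at each stage, and each array held RNA from a different foetus. The 110 dpc arrays came from 3 Blonde d'Aquitaine (BA) and 2 Charolais (CH) foetuses, and the 180 dpc arrays from 2 BA and 3 CH foetuses. Both are beef breeds. A mutation in *MSTN*, the gene of the growth inhibitor myostatin, occurs in some BA animals, and whether these foetuses carried it is not known because the study did not genotype them. There were 2 males and 3 females at 110 dpc and 1 male and 4 females at 180 dpc. The foetuses came from 2 sires in each of the groups BA at 110 dpc, CH at 110 dpc and CH at 180 dpc, whereas both BA foetuses at 180 dpc had 1 sire. The sample labels name the muscle as Longissimus thoracis and the study's methods name m. Semitendinosus, so the muscle is called skeletal muscle here. RNA was taken from whole tissue, in which fewer cells of a type and less RNA per cell cannot be told apart.

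Skeletal muscle fibres form when dividing myoblasts leave the cell cycle, fuse and assemble sarcomeres. The first fibres carry embryonic and neonatal forms of the contractile proteins, and these are later replaced by adult fast and slow forms. In the same period the fibres acquire the sarcoplasmic reticulum that releases calcium, the enzymes that break down glycogen and glucose, and a junction with a single motor nerve. In cattle the number of fibres is settled before birth, and maturation of the fibres begins well before term.

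A level is given here as the log2 of a probe's spot intensity minus the 75th percentile of its array, so that 0 is the brightness of the 75th percentile probe. A difference is the level at 180 dpc minus that at 110 dpc in log2 units, adjusted for breed, with its standard error (SE). Each gene is represented by its brightest tested probe. Of 31245 probes tested with limma, 5431 passed a Benjamini-Hochberg adjusted p of 0.05, and these are called higher or lower below. The higher probes numbered 2660 (8.51% of those tested) and the lower probes 2771 (8.87%). By gene, 1034 of 10292 were higher (10%) and 974 were lower (9.46%). The median difference over all genes tested was -0.01. Differences above 1 were found for 314 of the called genes and below -1 for 212. The first principal component of the 10 arrays, with 38% of the variance, placed the 110 dpc arrays at -32.35 and below and the 180 dpc arrays at 40 and above. BA replicate 3 at 110 dpc stood apart on the second component. Each of the 4 slides held both stages in equal number, and 97.3% of the called genes with a value on every slide had 1 direction on all 4. The slides hold the same arrays as the test, so a like direction is partly a condition of the call. Between 29943 and 34508 probes were well above background on an array. The number of foetuses limits the precision of every difference.

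The 15 genes with the largest rise and the 15 with the largest fall were taken from called genes whose stages did not overlap. Genes of mature fibres and some signalling genes had the largest rises. *FBP2*, the muscle fructose-bisphosphatase of glycogen synthesis, lay at -6.03, -7.20, -6.49, -7.43 and -7.40 in the 5 foetuses at 110 dpc and at 1.89, 3.26, 1.25, 2.11 and 1.72 at 180 dpc. Its brightest probe was not well above background on any 110 dpc array and was so on all 5 at 180 dpc. Without background subtraction the rise on this probe was at least 265-fold (adjusted p = 9.6e-07). The other tested probe of *FBP2* was also called higher, by 5.72, less than this bound. A bound of this kind sets the mean of the bright stage against the dim stage, on intensities without background subtraction. Each dim array entered at its own level or, if higher, at the lowest signal of any probe above background on that array. Where the probe's own level was the higher on every dim array, the bound is only the measured difference. With normexp background correction, which adds an offset of 50 to every spot, the differences of dim probes were smaller. That of the brightest *FBP2* probe was then 5.54, also less than its bound. *ACTN3*, the α-actinin of fast fibres, rose from -0.18, 0.28, -0.23, 0.30 and -0.01 to 3.39, 3.97, 3.96, 4.49 and 3.58, a difference of 3.79 ± 0.20 (SE, adjusted p = 1.16e-05). *TMOD4*, which caps thin filaments in skeletal muscle, rose by 3.28 ± 0.14 (adjusted p = 5.38e-06). Stages without overlap were a condition of the choice, and in these 3 genes the lowest foetus at 180 dpc lay far above the highest at 110 dpc.

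*EEF1A2*, the translation elongation factor of adult muscle and nerve, rose by 5.45 ± 0.51 (adjusted p = 0.000158). It was well above background in 1 of 5 foetuses at 110 dpc, so the size of the rise is uncertain, and it was 2.32 with normexp and 3.18 on the authors' table. *RPL3L*, the muscle form of a ribosomal protein, rose by 3.17 ± 0.20 (adjusted p = 2.2e-05). Their widely expressed counterparts, named here after their values were seen, did not rise: *EEF1A1* differed by -0.12 ± 0.10 (adjusted p = 0.49) and *RPL3* fell by 0.41 ± 0.12 (adjusted p = 0.0352). The *RPL3* call held in 14 of 28 settings and was lost, for example, without BA replicate 1 at 180 dpc (adjusted p = 0.114).

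Secreted signals were also among the top rises. *WNT16*, a WNT ligand, lay between -7.27 and -6.13 at 110 dpc, where it was not above background, and between -2.50 and -2.05 at 180 dpc. Without background subtraction *WNT16* was at least 13.5-fold higher (adjusted p = 9.42e-07). With normexp its difference was 1.70, less than this bound. *SOSTDC1*, a secreted antagonist of BMP and WNT signals, rose by 3.44 ± 0.57 (adjusted p = 0.00331). *BTC*, which encodes the EGF receptor ligand betacellulin, rose by 3.98 ± 0.28 (adjusted p = 3.28e-05). *OXT*, the oxytocin precursor, lay at -2.04, -2.13, -1.56, -1.77 and -1.25 at 110 dpc and at 1.51, 2.76, 1.37, 2.17 and 0.30 at 180 dpc (difference 3.42 ± 0.41, adjusted p = 0.000636). The remaining genes of the 15 largest rises were *KLHL33*, *SLC6A13*, *LRRC39*, *RGS5*, *ADGRB1* and *ASPA*, with differences of 3.15 to 5.90. *KLHL33*, *LRRC39* and *ASPA* were well above background on 3, 4 and 1 of the 5 arrays at 110 dpc.

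**Figure D1:**
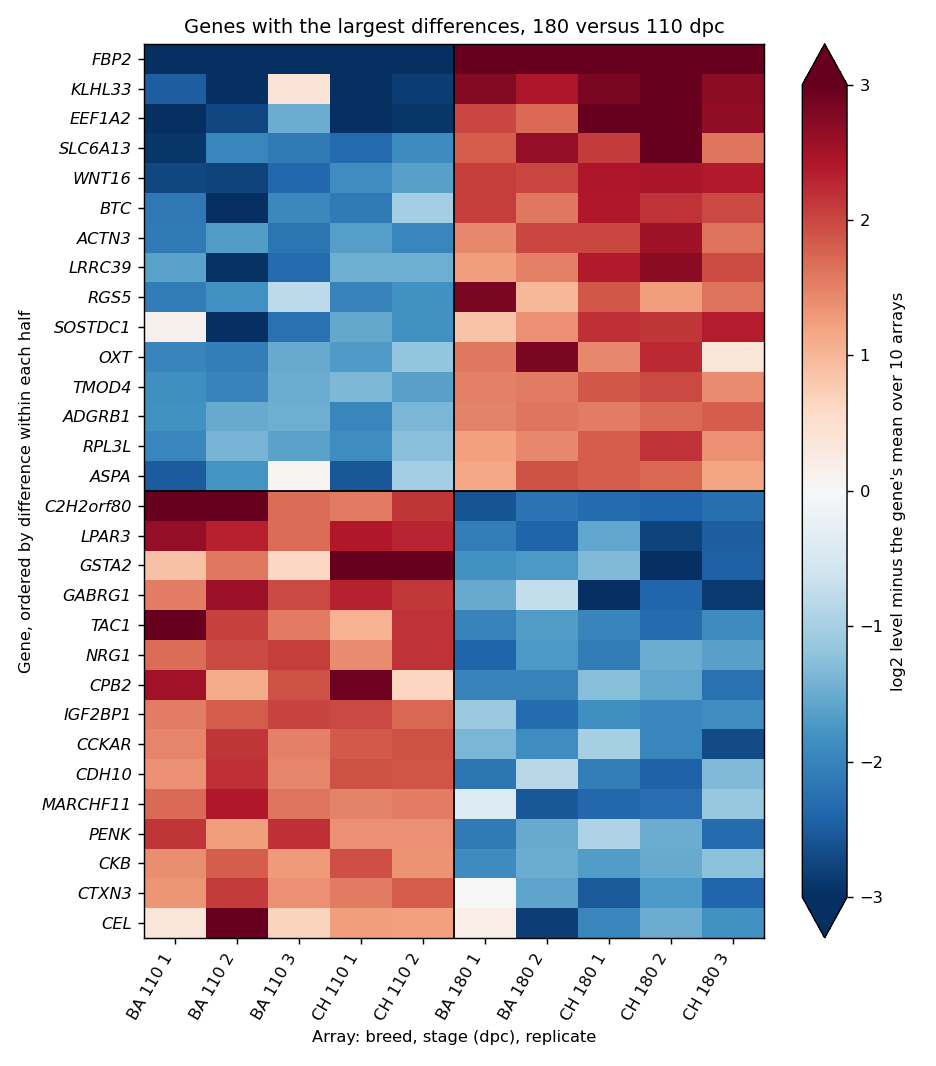
Heat map of the 15 genes with the largest rise (upper block) and the 15 with the largest fall (lower block) among genes passing the test. Columns are the 10 arrays, rows are genes, and colour is the log2 level minus the gene's mean over the 10 arrays, cut at -3 and 3. Within each stage single foetuses vary, for example the BA replicate 3 array in *KLHL33* and *ASPA* at 110 dpc, and the genes were chosen so that the stages do not overlap.

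The largest falls included receptors, neuropeptide precursors and an RNA-binding protein. *LPAR3*, a receptor for lysophosphatidic acid, lay at -0.72, -1.03, -1.68, -0.96 and -1.07 at 110 dpc and at -5.44, -5.76, -4.92, -6.14 and -5.83 at 180 dpc, where it was well above background on 1 of 5 arrays (difference -4.53 ± 0.25, adjusted p = 1.35e-05). *GABRG1*, a subunit of the GABA-A receptor, fell by 4.06 ± 0.37 (adjusted p = 0.000149). *CCKAR*, a cholecystokinin receptor, fell by 3.54 ± 0.30 (adjusted p = 9.86e-05). That all 5 foetuses at 180 dpc lay below all 5 at 110 dpc in these genes was a condition of their choice.

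Several of the falls ended at background, so that only a bound can be given. *C2H2orf80* was at least 19.4-fold lower, *GSTA2*, a glutathione transferase, at least 12.8-fold, *NRG1*, the neuregulin that signals from nerve to Schwann cells and muscle, at least 11.1-fold, *TAC1*, the substance P precursor, at least 10.4-fold, and the cadherin *CDH10* at least 8.44-fold. These 5 probes were well above background in every foetus at 110 dpc and in none at 180 dpc. With normexp all 5 were still called lower, but by less than these bounds, with differences of -1.46 for *C2H2orf80*, -1.78 for *GSTA2*, -1.02 for *NRG1*, -1.07 for *TAC1* and -0.90 for *CDH10*. *PENK*, the enkephalin precursor, fell by 3.32 ± 0.31 (adjusted p = 0.000153). *IGF2BP1*, which binds the mRNA of *IGF2* and others in embryonic tissue, lay between -1.49 and -1.01 at 110 dpc and between -5.34 and -4.15 at 180 dpc (difference -3.62 ± 0.21, adjusted p = 1.67e-05). *CPB2*, *MARCHF11*, *CTXN3*, *CEL* and *CKB*, described below, completed the 15 largest falls. In *CEL*, which encodes a lipase, the stages were close, with the lowest foetus at 110 dpc at -3.95 and the highest at 180 dpc at -4.10. Its call (adjusted p = 0.0275) was lost with normexp (0.123), on the authors' table (0.713), with slide as a block (0.0652) and without any of 5 single foetuses (0.0501 to 0.0851).

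Most adult fast-fibre genes rose. Of 14 measured members, 11 were higher (78.6%, against 10% of all genes) and none lower. The median difference was 1.26 against -0.01 over all genes. Without each foetus in turn 11 or 12 of the members were called. *MYH2*, the IIa myosin heavy chain, rose from 4.43, 4.61, 4.81, 4.68 and 4.91 to 5.65, 6.16, 6.13, 6.41 and 5.85 (difference 1.31 ± 0.15, adjusted p = 0.00042). *MYH1*, the IIx heavy chain, rose from 3.48, 3.67, 3.73, 3.75 and 3.77 to 4.28, 4.45, 4.71, 4.48 and 4.70 (difference 0.80 ± 0.10, adjusted p = 0.000559). Stages were separate in both genes. Myosin heavy chain genes are close in sequence, so their probes may take signal from each other. The fast troponin T gene *TNNT3* rose by 1.23 ± 0.15, *TPM1* by 1.23 ± 0.12, the Z-disc gene *MYOZ1* by 1.29 ± 0.11 and *ATP2A1*, the calcium pump of the fast sarcoplasmic reticulum, by 1.58 ± 0.14. The members that did not pass were *TNNC2* (0.39 ± 0.13, adjusted p = 0.0695), *MYOZ3* (0.50 ± 0.21, adjusted p = 0.147) and *PVALB* (-0.44 ± 0.38, adjusted p = 0.496). *TNNC2* was called in 8 alternatives and *MYOZ3* in 3, one of them without CH replicate 3 at 180 dpc (adjusted p = 0.0418).

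Embryonic and neonatal sarcomere genes did not move together. Of 8 tested, 2 were higher and 2 lower (25% each, against 10% and 9.46% of all genes), with a median of -0.14. *TNNT2*, the cardiac troponin T of early fibres, lay at 0.57, 1.02, 0.36, 1.07 and 0.83 at 110 dpc and at -0.89, -0.47, -1.28, -1.05 and -1.04 at 180 dpc (difference -1.70 ± 0.19, adjusted p = 0.000406). *MYL4*, the embryonic light chain, fell by 0.70 ± 0.18 (adjusted p = 0.0271) with overlapping stages. *MYH3*, the embryonic heavy chain, lay between 7.91 and 8.34 at 110 dpc and between 7.95 and 8.13 at 180 dpc (difference -0.03 ± 0.11, adjusted p = 0.87). *MYH8*, the neonatal heavy chain, was higher by 0.41 ± 0.10 (adjusted p = 0.0169), and *MYBPH* by 1.23 ± 0.29 (adjusted p = 0.017). The calls on *MYL4*, *MYH8* and *MYBPH* were lost when single foetuses were left out: without BA replicate 2 at 180 dpc none of the 8 was higher.

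Of 13 slow-fibre genes measured, 3 were higher (23.1%, against 10% of all genes) and 1 lower (7.69%, against 9.46%), with a median of 0.16. *MYH7*, the slow heavy chain, lay at 6.11, 7.04, 6.51, 6.84 and 6.80 at 110 dpc and at 6.90, 6.74, 6.98, 7.17 and 6.66 at 180 dpc (difference 0.19 ± 0.18, adjusted p = 0.517). Values for *MYL2* (-0.26 ± 0.16), *MYL3* (-0.42 ± 0.21) and *TNNC1* (-0.17 ± 0.13) also missed the threshold. *TPM3*, the slow tropomyosin, was the member that fell, from 4.95, 5.38, 5.27, 5.05 and 5.19 to 4.08, 3.68, 4.21, 4.12 and 3.99 (difference -1.17 ± 0.13, adjusted p = 0.000415). The higher members were *PLN* (1.56 ± 0.21), which restrains the slow calcium pump, *MYBPC1* (0.68 ± 0.10) and *SLN* (0.64 ± 0.09). Genes of the sarcomere shared by all fibres rose in 9 of 20 cases (45%, against 10% of all genes) and fell in none. Their median was 0.40. Among them were *TCAP*, the titin cap (2.22 ± 0.20), *LMOD2* (1.46 ± 0.19) and *MYOT* (0.94 ± 0.16). *ACTA1*, skeletal α-actin, differed by 0.08 ± 0.11 on its brightest probe (adjusted p = 0.702). Of its 4 tested probes 2 were called higher, and the largest difference was 1.54.

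**Figure D2:**
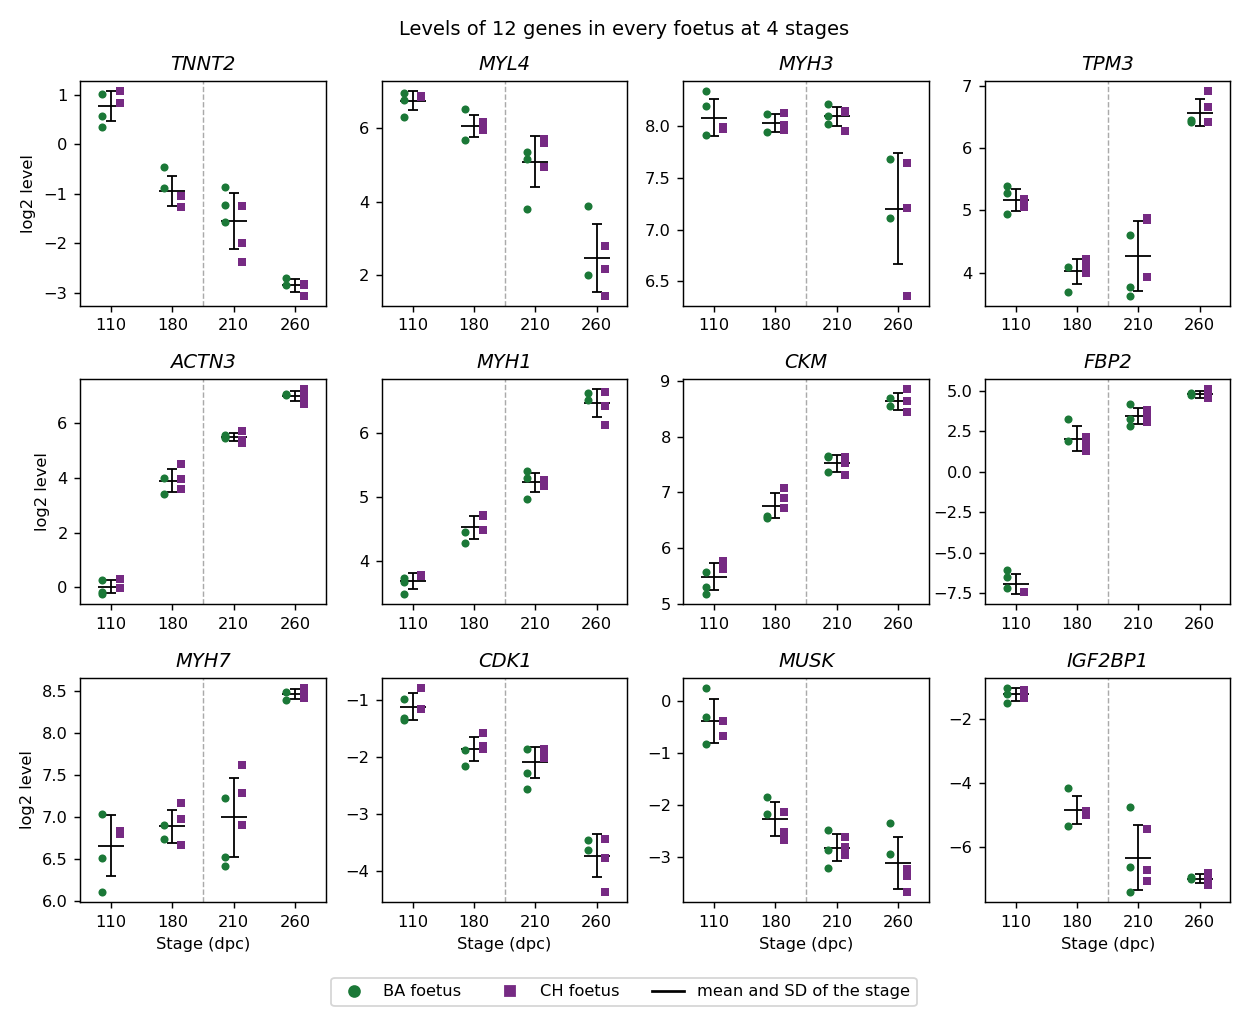
Levels of 12 genes in every foetus at the 4 stages of the series. The y axis is the log2 level relative to the array's 75th percentile, on a separate scale for each gene, circles are BA and squares CH foetuses, and the bar is the mean with the SD. *ACTN3*, *MYH1* and *CKM* were higher at 180 than at 110 dpc and higher again at 260 than at 210 dpc, *TPM3* fell between 110 and 180 dpc and rose between 210 and 260 dpc, and *MYH3* did not pass the test between 110 and 180 dpc and was lower at 260 than at 210 dpc.

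Genes of calcium release and reuptake were higher in 14 of 27 cases (51.9%, against 10% of all genes) and lower in none (median 0.40). Without BA replicate 2 at 180 dpc, 9 were called. *CASQ1*, the calcium store protein of fast reticulum, rose by 1.69 ± 0.14 (adjusted p = 9.94e-05). *RYR1*, the release channel, lay between 1.15 and 2.02 at 110 dpc and between 2.27 and 3.05 at 180 dpc (difference 1.01 ± 0.21, adjusted p = 0.01). Genes of the dystrophin complex and the surface membrane were higher in 8 of 20 cases (40%, against 10% of all genes). None was lower, and the median was 0.35. *CAV3*, the muscle caveolin, rose by 0.90 ± 0.11 and *BIN1*, which shapes T-tubules, by 0.82 ± 0.13. In all 4 of these genes the stages did not overlap.

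Myogenic regulators were mixed, with 4 of 20 higher and 3 lower (20% and 15%, against 10% and 9.46% of all genes). Their median was 0.19. *MYF5*, a determination factor of myoblasts, lay at 0.60, 0.88, 0.57, 1.03 and 0.80 at 110 dpc and at 0.12, -0.21, -0.09, -0.12 and -0.15 at 180 dpc (difference -0.88 ± 0.12, adjusted p = 0.000957). *MYMK*, the membrane activator of myoblast fusion, fell by 1.00 ± 0.18 (adjusted p = 0.00507). *SOX6*, a repressor of slow-fibre genes, rose by 0.54 ± 0.10 and *MET* by 0.76 ± 0.15. *MYF6* was higher by 0.52 ± 0.15 (adjusted p = 0.0372), a call held in 15 of 28 settings and lost without any of 6 single foetuses (0.0514 to 0.109) and with the replicate block (0.0622). The 2 tested probes of *CDH15*, M-cadherin, disagreed (-0.55 and 1.01, both called, the first not without most single foetuses), so it has no settled direction. *MYOG* (-0.09 ± 0.29, adjusted p = 0.884) and *MYOD1* (0.35 ± 0.83, adjusted p = 0.826) missed the threshold with wide errors, and *MYOD1* lay at 6.12 in CH replicate 2 at 110 dpc against 1.31 to 2.46 in the other foetuses of that stage. Without that foetus *MYOD1* was higher at 180 dpc by 1.47 (adjusted p = 0.042). *MSTN* differed by -0.55 ± 0.33 (adjusted p = 0.296).

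Genes of cell division were lower at 180 dpc. Of 39 mitosis genes 38 were lower and none higher, against 9.46% of all genes lower, and the median difference was -0.75. *KIF4A*, a chromosome-bound kinesin, lay at -0.85, -0.64, -0.41, -0.54 and -0.59 at 110 dpc and at -1.87, -1.61, -1.32, -1.60 and -1.63 at 180 dpc (difference -1.03 ± 0.12, adjusted p = 0.00045). *CDK1*, the kinase that starts mitosis, fell by 0.79 ± 0.12 (adjusted p = 0.00234), its partner *CCNB1* by 0.73 ± 0.17 and *AURKB* by 0.75 ± 0.11. *KIF11* was the member that did not pass (-0.81 ± 0.27, adjusted p = 0.0692), though it was called in 5 of the alternatives, among them without BA replicate 2 at 180 dpc (-1.06, 0.0241). The differences of the 39 genes lay in a narrow range, from -1.03 to -0.41, and 36 to 39 of them were called when single foetuses were left out.

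DNA replication genes were lower in 20 of 35 cases (57.1%, against 9.46% of all genes) and higher in none (median -0.45). *MCM4*, a subunit of the replicative helicase, lay between 2.25 and 2.58 at 110 dpc and between 1.70 and 2.01 at 180 dpc (difference -0.59 ± 0.09, adjusted p = 0.00184). *RRM2*, which makes deoxynucleotides, fell by 0.82 ± 0.15 and *UHRF1* by 0.85 ± 0.18. *MCM3* had overlapping stages (-0.58 ± 0.20, adjusted p = 0.0806) and was called when BA replicate 2 at 110 dpc was left out (0.0429). Of the DNA replication genes, 11 were called without BA replicate 1 at 180 dpc and 12 without CH replicate 1 at 110 dpc. Chromatin genes of proliferating cells were lower in 12 of 22 cases (54.5%, against 9.46% of all genes), with a median of -0.39. Without BA replicate 1 at 180 dpc 7 were called. The tubulin regulator *STMN1* fell most (-1.08 ± 0.09, adjusted p = 8.79e-05). Of 19 genes in a list of cell-cycle inhibitors and exit genes, 1 was higher and 5 lower. These shares were 5.26% and 26.3%, against 10% and 9.46% of all genes. The list also holds *E2F1* and *CCNE2*, which are not inhibitors and were among the 5 lower. The inhibitor *CDKN1A* fell by 1.04 ± 0.20 (adjusted p = 0.00704) and *E2F1* by 1.04 ± 0.19, while *GADD45A* rose by 0.99 ± 0.15.

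**Figure D3:**
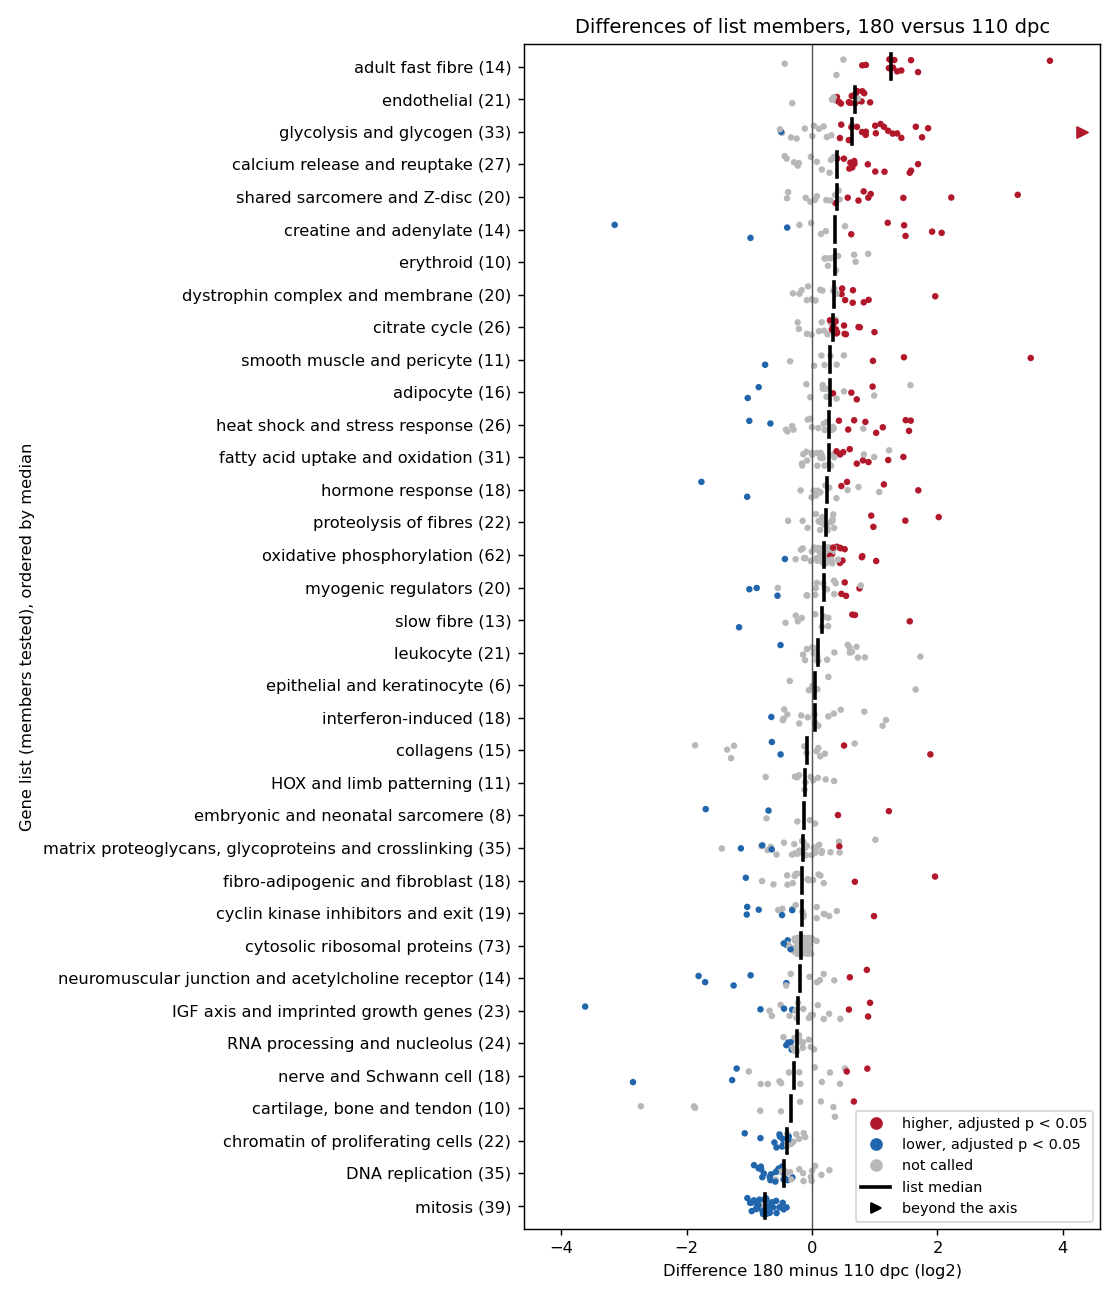
Differences between 180 and 110 dpc of every tested member of 36 gene lists, on a log2 x axis, with lists ordered by their median (black bar) and the number tested in brackets. Red and blue points passed the test as higher or lower, grey points did not, and *FBP2* lies beyond the axis. Adult fast fibre, endothelial and glycolysis lists have the highest medians (1.26, 0.68 and 0.64) and mitosis and DNA replication the lowest (-0.75 and -0.45).

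Glycolysis and glycogen genes rose in 20 of 33 cases and fell in 1 (60.6% and 3.03%, against 10% and 9.46% of all genes). Their median was 0.64. *PGM1*, which links glycogen to glycolysis, lay at 3.70, 3.72, 3.72, 4.06 and 4.12 at 110 dpc and at 5.67, 5.83, 5.55, 6.06 and 5.65 at 180 dpc (difference 1.85 ± 0.13, adjusted p = 3.06e-05). *SLC2A4*, the insulin-responsive glucose carrier, rose by 1.75 ± 0.12 (adjusted p = 3.51e-05), *ENO3*, muscle enolase, by 1.66 ± 0.16, and *PYGM*, muscle glycogen phosphorylase, by 1.36 ± 0.13. The lactate dehydrogenase genes moved in opposite directions: *LDHA*, the form of glycolytic fibres, rose by 1.29 ± 0.14 (adjusted p = 0.000332), and *LDHB* fell by 0.50 ± 0.11 (adjusted p = 0.0153). *LDHB* was the member that fell, with overlapping stages, and its call was lost without BA replicate 1 at 180 dpc (adjusted p = 0.0542).

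Citrate cycle genes were higher in 13 of 26 cases (50%, against 10% of all genes) and lower in none (median 0.33). Between 7 and 8 were called when any of 6 single foetuses was left out. *SDHB*, a subunit of succinate dehydrogenase, rose by 0.74 ± 0.12 (adjusted p = 0.00345). The kinases that switch off pyruvate entry, *PDK4* and *PDK1*, rose by 1.00 ± 0.20 and 0.76 ± 0.14. Oxidative phosphorylation genes were higher in 13 of 62 cases and lower in 1 (21% and 1.61%, against 10% and 9.46% of all genes). Their median was 0.20, and the calls numbered 6 without BA replicate 2 at 180 dpc. *COX7A1*, the muscle form of a cytochrome oxidase subunit, rose by 1.02 ± 0.19 (adjusted p = 0.00579), while *COX7A2*, its widely expressed relative, was the one that fell (-0.43 ± 0.09, adjusted p = 0.00774). Fatty acid uptake and oxidation genes were higher in 9 of 31 cases (29%, against 10% of all genes), with a median of 0.27. Without BA replicate 2 at 180 dpc 5 were called. *CD36*, a fatty acid carrier, rose from 0.77, 0.82, 0.74, 0.89 and 0.89 to 2.21, 1.93, 2.08, 2.20 and 1.78 (difference 1.21 ± 0.11, adjusted p = 0.000119). *FABP3* differed by -0.16 ± 0.15 (adjusted p = 0.539).

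Creatine and adenylate genes were higher in 6 of 14 cases and lower in 3 (42.9% and 21.4%, against 10% and 9.46% of all genes). Their median was 0.37. *CKM*, muscle creatine kinase, lay at 5.30, 5.57, 5.18, 5.76 and 5.63 at 110 dpc and at 6.55, 6.57, 6.90, 7.08 and 6.72 at 180 dpc (difference 1.21 ± 0.11, adjusted p = 0.000127). *CKMT2*, the mitochondrial form, rose by 1.49 ± 0.14 and *ADSS1*, the muscle adenylosuccinate synthase, by 1.92 ± 0.17. *CKB*, the brain form, fell on its brightest probe from 4.38, 4.81, 4.26, 4.93 and 4.35 to 1.09, 1.51, 1.32, 1.48 and 1.76 (difference -3.15 ± 0.17, adjusted p = 1.25e-05). Its 6 tested probes did not agree: 3 were lower, by 1.38 or more, and 3 higher, by up to 0.74. The direction given is that of its brightest probe.

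Genes of the neuromuscular junction were lower in 5 of 14 cases and higher in 2 (35.7% and 14.3%, against 9.46% and 10% of all genes). Their median was -0.19. *MUSK*, the receptor kinase that organises the postsynaptic membrane, lay at -0.32, 0.25, -0.84, -0.39 and -0.68 at 110 dpc and at -2.17, -1.85, -2.68, -2.13 and -2.53 at 180 dpc (difference -1.81 ± 0.21, adjusted p = 0.000472). *COLQ*, which anchors acetylcholinesterase, fell by 1.71 ± 0.17 (adjusted p = 0.000226) and *ETV5*, a transcription factor of synaptic nuclei, by 1.25 ± 0.12. The foetal acetylcholine receptor subunit *CHRNG* fell by 0.98 ± 0.19 (adjusted p = 0.00707), whereas *CHRNA1*, shared by foetal and adult receptors, differed by -0.04 ± 0.13 (adjusted p = 0.871). Nerve and Schwann cell genes were lower in 3 of 18 cases and higher in 2 (16.7% and 11.1%, against 9.46% and 10% of all genes). *SNAP91*, a clathrin adaptor of synaptic vesicles, fell by 2.86 ± 0.18 (adjusted p = 2.56e-05), *UCHL1* by 1.28 ± 0.13 and *ERBB3*, a neuregulin receptor, by 1.20 ± 0.16. The higher members were *S100B* (0.88 ± 0.13) and *PMP22* (0.55 ± 0.11). The mean level of the nerve and Schwann cell markers ranged over -3.30 to -2.60 at 110 dpc and -4.00 to -2.23 at 180 dpc, and none of them was called.

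Endothelial genes rose in 16 of 21 cases (76.2%, against 10% of all genes) and fell in none (median 0.68). *PECAM1*, an adhesion protein of vessel walls, lay at 1.33, 1.49, 1.83, 1.54 and 1.51 at 110 dpc and at 2.28, 2.38, 2.08, 2.19 and 2.32 at 180 dpc (difference 0.72 ± 0.11, adjusted p = 0.00219). *EGFL7* rose by 0.93 ± 0.13, *CLDN5* by 0.80 ± 0.15 and *CDH5* by 0.73 ± 0.14. *VWF* differed by 0.32 ± 0.13 (adjusted p = 0.138). Smooth muscle and pericyte genes were higher in 3 of 11 cases and lower in 1 (27.3% and 9.09%, against 10% and 9.46% of all genes). *RGS5*, a pericyte marker, was below background at 110 dpc and, without background subtraction, at least 5.76-fold higher at 180 dpc (adjusted p = 0.000263). With normexp the *RGS5* difference was 0.97, less than this bound. *MYH11*, smooth muscle myosin, rose by 1.47 ± 0.25, and *ACTA2*, which early skeletal fibres also express, fell by 0.75 ± 0.12. *COL15A1*, a basement membrane collagen, lay at 0.18 or below at 110 dpc and between 1.66 and 2.10 at 180 dpc (difference 1.89 ± 0.11, adjusted p = 1.67e-05), and *COL4A1* by 0.51 ± 0.09.

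Of 15 collagen genes, 2 were higher and 2 lower (13.3% each, against 10% and 9.46% of all genes), with a median of -0.09. The higher members were *COL15A1* and *COL4A1*, given above, and the lower ones *COL5A3* (-0.64 ± 0.18, adjusted p = 0.0354) and *COL18A1* (-0.50 ± 0.11, adjusted p = 0.012). The *COL5A3* call held in 15 of 28 settings. It was lost, for example, without BA replicate 2 at 110 dpc (0.0569) and with slide as a block (0.0788). The fibrillar *COL1A1* differed by 0.10 ± 0.24, *COL1A2* by -0.09 ± 0.31 and *COL3A1* by 0.07 ± 0.19. Of 35 further matrix genes 1 was higher and 3 lower (2.86% and 8.57%, below the shares of all genes). *VCAN*, versican, fell by 0.80 ± 0.16 (adjusted p = 0.00766). *SPP1*, osteopontin, was lower by 1.14 ± 0.29 (adjusted p = 0.0245), a call lost without either CH foetus at 110 dpc (0.0846 and 0.0684), without CH replicate 1 at 180 dpc (0.051) and with slide as a block (0.0511). These genes varied between foetuses of 1 stage. The mean level of the 2 tested cartilage and tendon markers, *COL2A1* and *TNMD*, was 4.48 in BA replicate 1 at 110 dpc and 2.73 in CH replicate 3 at 180 dpc. It lay between 0.19 and 2.30 in the other 4 foetuses at 110 dpc and between -1.37 and -0.11 in the other 4 at 180 dpc. Apart from CH replicate 3 at 180 dpc the stages did not overlap, but that foetus was set aside after its value was seen. With all foetuses neither marker was called (*COL2A1* adjusted p = 0.174). Of 10 tested genes of the cartilage, bone and tendon list, 1 was higher and 0 lower. These shares were 10% and 0%, against 10% and 9.46% of all genes. *TNMD*, a tendon gene, lay at 3.63 in BA replicate 1 at 110 dpc and at 1.87 in CH replicate 3 at 180 dpc (difference over stages -2.73 ± 1.08, adjusted p = 0.119). It was called lower with slide as a block (-2.86, 0.00935), with the replicate block (0.0462), with sex as a covariate (0.0281), in females alone (0.0405) and without CH replicate 3 at 180 dpc (-3.44, 0.0275). Adipocyte markers averaged between -1.96 and -1.34 in BA replicate 1 at 110 dpc and CH replicates 1 and 3 at 180 dpc and -3.81 or less in the others. The part of these tissues in the results on matrix and fat genes was not tested.

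The check of the tissue gave skeletal muscle markers at a mean level of 5.45 to 5.90 at 110 dpc and 6.02 to 6.34 at 180 dpc, with 2 of 6 called higher. Endothelial markers averaged 0.26 to 0.56 and 0.93 to 1.10, with 4 of 5 higher, and smooth muscle markers to -0.25 to 0.07 and 0.56 to 1.25. Leukocyte markers (0.29 to 1.87 and 0.89 to 1.65), erythroid markers (0.57 to 1.71 and 1.08 to 2.67), fibroblast markers (2.90 to 3.88 and 3.03 to 3.84) and epithelial markers (-1.88 to -1.24 and -1.46 to -0.87) overlapped between the stages, with 1 of these markers called, the leukocyte gene *PTPRC* (-0.50 ± 0.14, adjusted p = 0.0353). That call held in 14 of 28 settings and was lost without any of 7 single foetuses (0.0519 to 0.115). The erythroid gene *SLC4A1* was not well above background on any of the 10 arrays.

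Interferon-induced genes stood apart in 1 foetus. *ISG15*, a ubiquitin-like interferon target, lay at 5.40 in BA replicate 3 at 110 dpc and between -3.57 and -0.88 in the other 4 of that stage. *OAS2*, an antiviral synthetase, was at -1.45 in the same foetus and at or under -5.82 in the other 9, where it was not above background. With all foetuses 1 of 18 list members was lower (5.56%, against 9.46% of all genes) and none higher. The lower member was *IFIT5* (-0.65 ± 0.18, adjusted p = 0.0325), a call lost without any of 6 single foetuses. Without BA replicate 3 at 110 dpc 5 list members were higher and 1 lower. The *ISG15* difference was -0.47 ± 1.33 with that foetus and 0.72 without it (adjusted p = 0.859 and 0.301). Without this foetus, 5727 probes were called over the whole array.

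Of 23 genes of the IGF axis and imprinted growth control, 3 were higher and 4 lower (4 in all without BA replicate 1 at 180 dpc or CH replicate 1 at 110 dpc). The shares higher and lower in this list were 13% and 17.4%, against 10% and 9.46% of all genes. The noncoding *H19* rose by 0.92 ± 0.14 (adjusted p = 0.00205) and *IGF1* by 0.59 ± 0.11 (adjusted p = 0.00553). *IGF2BP3*, a relative of *IGF2BP1*, fell by 0.82 ± 0.12 (adjusted p = 0.00164). *IGF2* lay between 7.90 and 8.21 at 110 dpc and between 7.79 and 8.34 at 180 dpc on its brightest probe (0.01 ± 0.12, adjusted p = 0.963), while 4 of its 11 probes were called higher, by 0.52 to 0.66. Hormone response genes included *FKBP5*, a glucocorticoid target, at 0.27, 0.51, 0.37, 0.70 and 0.54 at 110 dpc and -1.03, -1.22, -1.44, -1.27 and -1.50 at 180 dpc (difference -1.77 ± 0.13, adjusted p = 3.86e-05), and the metallothionein *MT2A*, which rose by 1.69 ± 0.28. In the hormone response list 4 of 18 were higher and 2 lower (22.2% and 11.1%, against 10% and 9.46% of all genes).

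Stress response genes were higher in 9 of 26 cases and lower in 2 (34.6% and 7.69%, against 10% and 9.46% of all genes). Their median was 0.27. *DUSP1*, an early-response phosphatase, rose by 1.57 ± 0.15 (adjusted p = 0.000206), *IER3* by 1.55 ± 0.20 and the chaperone partner *BAG3* by 0.85 ± 0.14, whereas the small heat shock gene *HSPB3* fell by 1.00 ± 0.13 (adjusted p = 0.00103). *FOS*, an early-response transcription factor, lay at 2.81 and 1.32 in the BA and at 0.81, 0.01 and 0.28 in the CH foetuses at 180 dpc, against -0.48 to 0.29 at 110 dpc (difference 1.49 ± 0.38, adjusted p = 0.0257), with overlapping stages. The *FOS* call was lost without BA replicate 2 at 110 dpc (0.0531) or CH replicate 1 at 180 dpc (0.0523). Fibre proteolysis genes were higher in 4 of 22 cases (18.2%, against 10% of all genes), led by *ASB15* (2.02 ± 0.14) and *ASB11* (1.49 ± 0.12). The atrophy ligases *FBXO32* (0.35 ± 0.25) and *TRIM63* (-0.38 ± 0.19) missed the threshold. Cytosolic ribosomal protein genes were lower in 4 of 73 cases (5.48%) and RNA processing genes in 4 of 24 (16.7%), against 9.46% of all genes. With single foetuses left out these counts fell to as few as 0 and 1.

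Whether the step differed between the breeds was asked with an interaction term. The test of the stage by breed interaction in limma called 0 of 31245 probes (0%), with 1995 at an unadjusted p under 0.05 and a lowest adjusted p of 0.27. Without CH replicate 1 at 110 dpc the interaction called 23 probes. Fitted within breed, 2497 probes were called in BA and 2087 in CH. *ACTN3* rose by 3.72 in BA and 3.87 in CH, *CKM* by 1.21 and 1.20, and *MUSK* fell by 1.71 and 1.91. *APOC4*, an apolipoprotein gene, was among those with the smallest interaction p-values and lay at -0.57 and -0.61 in the CH foetuses at 110 dpc and between -3.65 and -2.93 in the other 8.

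**Figure D4:**
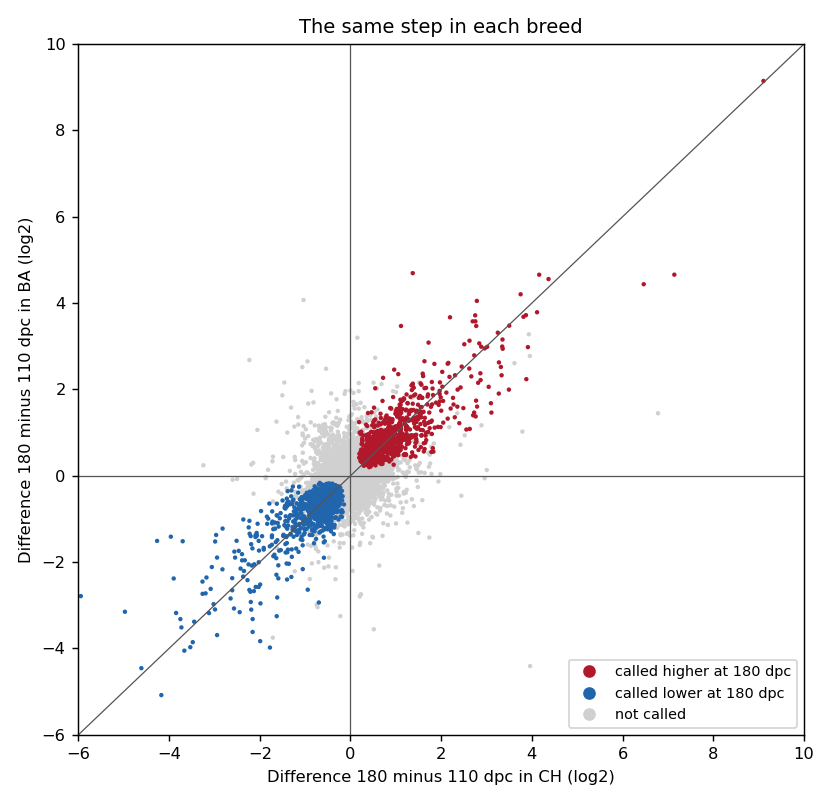
Difference between 180 and 110 dpc in BA (y axis, 2 foetuses at 180 and 3 at 110 dpc) and in CH (x axis, 3 at 180 and 2 at 110 dpc), in log2 units, for each tested gene. Red and blue genes were called higher or lower in the fit of both breeds together, so their like sign is part of the call. Pearson's r across all genes tested, which are not independent replicates, was 0.68.

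The later step, from 210 to 260 dpc, was measured in 11 other foetuses, and served to see where the genes went next. In that comparison 11470 of 30883 probes were called (37.1%). Among 10025 genes tested in both, 20.1% were higher at 260 dpc and 20.7% lower. Of the 1030 genes that were higher at 180 dpc, 41.3% were higher again at 260 dpc and 15.5% lower (median 0.24). Of the 897 that were lower at 180 dpc, 51.8% were lower again and 7.58% higher (median -0.41).

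Some genes went on in the same direction. *ACTN3* rose by a further 1.52 and *CKM* by 1.12, and *CDK1* fell by a further 1.64. Slow-fibre genes that had not passed in the first step rose in the later one, *MYH7* by 1.44, *MYL3* by 1.73 and *TNNC1* by 2.13, and *TPM3* turned from its fall to a rise of 2.26 (adjusted p = 5.67e-05). *MYH3* fell by 0.88 (adjusted p = 0.00687), and *MYH8*, which had risen, by 0.76. Other genes also turned. *WNT16* fell by 2.79 (adjusted p = 0.0052) and *SOSTDC1* by 3.38 (adjusted p = 0.000191) after their rise, and *CTXN3* rose by 3.57 and *GSTA2* by 2.19 after their fall. *KDR*, the endothelial VEGF receptor, was 0.46 higher at 180 than at 110 dpc and 0.93 lower at 260 than at 210 dpc.

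**Figure D5:**
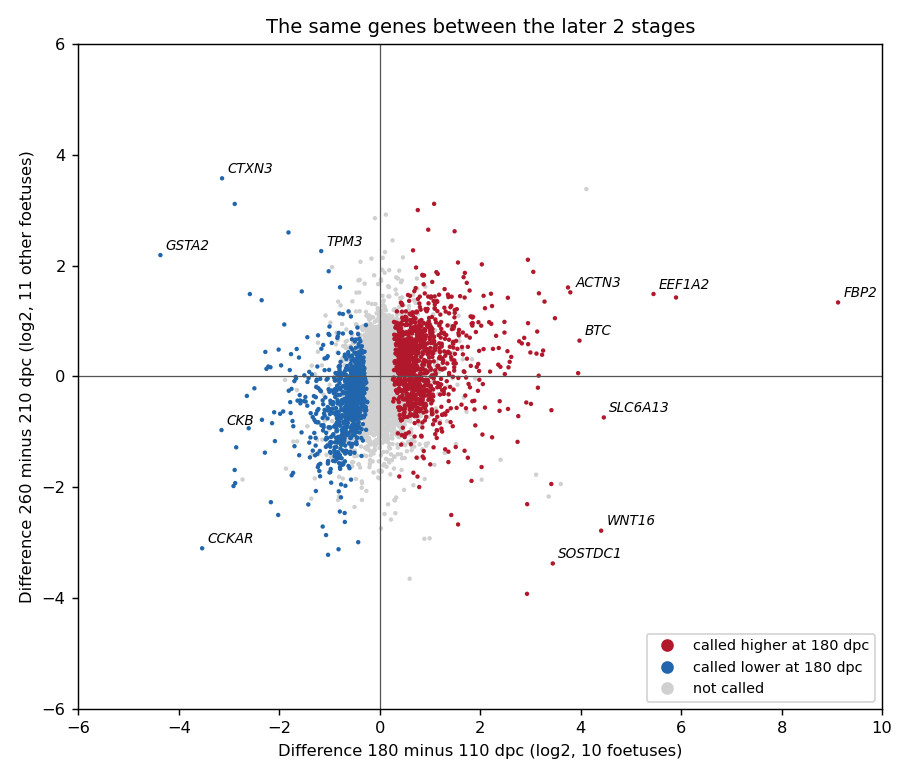
Difference between 260 and 210 dpc (y axis, 11 foetuses) against the difference between 180 and 110 dpc (x axis, 10 other foetuses) for 10025 genes, both in log2 units. Red and blue genes were called higher or lower at 180 dpc and grey genes were not, and *WNT16*, *SOSTDC1*, *CTXN3*, *GSTA2* and *TPM3* are among those with opposite signs in the 2 steps.

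Starting from the authors' value table, whose arrays are not scaled to each other, 1909 probes were called, of which 60.2% were higher, against 49.0% of the 5431 called on scaled values. With those values 22 of the mitosis genes, 4 of the DNA replication, 13 of the glycolysis, 7 of the endothelial and 2 of the citrate cycle genes were called, and 11 of the adult fast-fibre genes.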

How the data were processed

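Single-colour (Cy3) Agilent 4x44K arrays measured RNA of whole foetal muscle, 1 array per foetus. The authors extracted intensities from the scanned arrays with Feature Extraction 10.7, per the file headers with detrending and no background subtraction. They deposited each spot's processed intensity. The deposited value table holds log2 intensity that is not scaled between arrays: 649643 of its 649670 values lay within 0.01 of the log2 of the scanner intensity. Here log2 processed intensity minus the 75th percentile of each array over 43653 non-control probes was used, without 180 outlier spots. Probes well above background on at least 5 of the 10 arrays were tested with limma 3.58.1 in R 4.3.3 (stage and breed, adjusted p threshold 0.05). RefSeq accessions on the array gave 26628 probes a symbol (12538 genes), and 17025 stayed unnamed. Named genes were the 15 largest called rises and falls without overlap of the stages, the first 3 and the 4 largest called members of each list, genes whose probes disagree, members with only a bound and the 5 with the lowest interaction p. Other genes named were chosen after their values were seen, and some genes are not reported here. The comparison and the gene lists were chosen with earlier results of these data known. The script was tested on simulated data. Same-numbered foetuses of different groups did not deviate together (median correlation 0.036 over 13 pairs, from -0.209 to 0.416), so numbers were not taken as pairs. Alternatives changed the background correction, scaling, filter, arrays, covariates and blocks and left out each foetus in turn.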

Additional observations from a re-analysis of the deposited data

Results flagged for a closer look

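Of 460 stage groups (230 genes at 2 stages), 29 held a foetus far from the other 4 by Dixon's test, and chance alone gives about 1 in 20 such groups. BA replicate 3 at 110 dpc was the foetus in 8 of them, and no other foetus in more than 3.

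BA replicate 3 at 110 dpc was high in *KIF23* (0.299), *COX7A1* (3.974), *UCHL1* (3.183), *RGS5* (-6.233, not well above background), *CD74* (0.139) and *BOLA-DRA* (3.004), and low in *PDK4* (-1.372) and *GATM* (-4.05). Of the same stage, BA replicate 1 was low in *MYL4* (6.291), *LAMB2* (3.46) and *TNNC2* (7.815), and BA replicate 2 was high in *COL5A3* (0.362), *MARCHF11* (-1.069) and *CEL* (0.027). CH replicate 1 was high in *CCNE2* (-3.058), *ACTA2* (5.432) and *PYGM* (1.768), and CH replicate 2 in *SQSTM1* (1.946) and *MYOD1* (6.119).

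At 180 dpc, BA replicate 1 was low in *MYH8* (7.383) and *CCNB1* (-2.396) and high in *PDK1* (1.797), and BA replicate 2 was high in *SOX6* (-0.448). CH replicate 1 was low in *UCHL1* (1.223) and high in *CD34* (2.685), CH replicate 2 was high in *MET* (-1.375) and low in *IGFBP7* (5.2), and CH replicate 3 was low in *ETV5* (-1.25) and high in *MYF6* (1.852).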

How the results depend on the processing

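The 5431 called probes became 1909 on the authors' table, 5018 with normexp, 4629 with median scaling, 4387 without a filter, 4166 in females alone, 3944 with sire in place of breed, 6401 with slide as a random block and 5329 with the replicate number as a block, and between 3713 (without CH replicate 1 at 110 dpc) and 5727 with single foetuses left out. The replicate block was only a shared number, since the numbers do not pair the foetuses. The interaction called 1 probe with normexp and between 0 and 23 with single foetuses left out. The genes whose difference changed sign are given next, and none of them had passed the test. *IGF2* was -0.046 with normexp, -0.008 with sex as a covariate and -0.047 in females alone, and -0.095 to 0.114 with single foetuses left out. *OTX2*, one of the genes with the lowest interaction p (1.45 with all foetuses), was -0.266 on the authors' table. *COL1A2* was 0.035 with sex, 0.088 in females and -0.308 to 0.136 with foetuses left out. *MYOD1* was -0.135 in females and -0.193 to 1.472 with foetuses left out, and *ISG15* 0.348 and -1.146 to 0.717. With sire in place of breed *COL1A1* was -0.025 and *MYOG* 0.027. With foetuses left out *MYOG* ranged over -0.348 to 0.066, *MYH3* over -0.081 to 0.018, *CHRNA1* over -0.141 to 0.033 and *COL3A1* over -0.056 to 0.228. The cause of these changes was not tested.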

Other observations

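The families and genes below were chosen after their values were seen, and their counts are a description. Over all genes tested 10% were higher and 9.46% lower. Channels of the adult fibre membrane were among the rises. *CLCN1*, the chloride channel of skeletal muscle, lay between -1.87 and -1.42 at 110 dpc and between 0.23 and 0.74 at 180 dpc (difference 2.07 ± 0.14, limma adjusted p = 3.21e-05). The sodium channel subunit *SCN4B* rose by 2.95 ± 0.54 and was well above background in 2 of 5 foetuses at 110 dpc. Of 39 potassium channel subunits 6 were higher and 5 lower, little above the 10% and 9.46% of all genes. The inward rectifier *KCNJ12* rose by 1.79 ± 0.20, and *KCNH2* fell by 1.73 ± 0.24.

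Some single genes that also act in nerve cells were lower, picked for their values, while 13 of the 18 genes of the nerve and Schwann cell list were not called. The microtubule-binding *DCX* was well above background in all 5 foetuses at 110 dpc and in none at 180 dpc. It was called lower (limma adjusted p = 0.000617), by 5.29-fold as a bound and 5.28-fold in the fit. Its bound was thus no more than the measured difference. With normexp background correction the *DCX* difference was -0.67, a smaller fall. The adhesion gene *NRCAM* fell by 2.17 ± 0.19, the GABA receptor subunit *GABRA2* by 2.10 ± 0.17 and *DPYSL5*, which acts in axon growth, by 1.42 ± 0.12. *HES6*, a transcription factor of differentiating myoblasts and neurons, fell by 1.58 ± 0.13 (adjusted p = 8.03e-05). *CCKBR*, the other cholecystokinin receptor, fell by 2.25 ± 0.28 on its brightest probe, while its other tested probe (-0.09) was not called. At 180 dpc the brightest *CCKBR* probe lay at -0.64 and -0.41 in the BA and between -3.14 and -2.39 in the CH foetuses.

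Secreted signals moved in both directions. Of 10 secreted WNT antagonists 4 were higher and none lower, among them *FRZB*, from between 0.46 and 1.52 to between 2.49 and 2.90 (difference 1.72 ± 0.17, adjusted p = 0.000214). Of 11 fibroblast growth factors 3 were lower and none higher, led by *FGF7* (-1.42 ± 0.21). *OXTR*, the oxytocin receptor, rose by 2.62 ± 0.32 (adjusted p = 0.000704) and was well above background in 1 of 5 foetuses at 110 dpc and in all 5 at 180 dpc. Of 21 chemokines 7 were higher and 1 lower, with *CCL21* rising by 2.76 ± 0.39. The class II histocompatibility gene *CD74* rose by 1.43 ± 0.30, with the stages overlapping through BA replicate 3 at 110 dpc. *BOLA-DRA*, of the same class, was higher by 1.51 ± 0.42 (adjusted p = 0.0362), a call held in 16 of 28 settings and lost without any of 8 single foetuses (0.0611 to 0.114).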
